A study of Homo sapiens with 21 samples.

Results

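The genes described here were taken by symbol as those of RNA helicases of the DEAD-box and DEAH-box families. The symbols were DDX and a number, with or without a letter A to C, or DHX and a number. All lie on chromosomes 1 to 22 and X. The rule took 53 of the 26485 genes in the count table. DDX3X, DDX3Y, DDX60L, the DDX11L copies, DDX12P and the antisense genes DDX11-AS1 and DDX26B-AS1 fell outside it. DDX58 and DDX26B are listed under the older symbols of RIGI and INTS6L. DDX26B entered by its older symbol alone, and it is counted among the helicase genes below on that basis only. The cells were MDA-MB-436, an established breast cancer cell line with a mutated BRCA1 gene, which every group shares. They carried a doxycycline-inducible lentiviral hairpin, either a control (shScr) or one against RNF8 (shRNF8), a ubiquitin ligase of the response to DNA breaks. RNA-seq of mRNA covered 3 libraries of each hairpin. DNA-RNA hybrids were pulled down from sonicated chromatin with the antibody S9.6 (DRIP-seq) in 2 shScr and 4 shRNF8 libraries, and in as many libraries again whose labels name an RNase treatment. A single hairpin against RNF8 is labelled and no rescue, so loss of RNF8 and any other effect of carrying this hairpin cannot be told apart. Separate cultures are not labelled, and p-values describe the spread of these libraries, which may be technical.

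DEAD-box and DEAH-box proteins share a helicase core that binds RNA and uses ATP to open short duplexes, release proteins from RNA or clamp onto it, and they are named after the amino acids of an ATP-binding motif. Most act in 1 step of the life of an RNA: splicing, export from the nucleus, translation, decay, or the assembly of ribosomes in the nucleolus, while a few sense viral RNA. Some also act on R-loops, in which an RNA pairs with its DNA template and displaces the other strand. DHX9, DDX5, DDX1, DDX21 and DDX41 have been linked to the unwinding or formation of such hybrids, DHX36 unwinds G-quadruplexes, and XRN2, named in the title of the series, is the exonuclease of transcription termination with which DDX5 has been studied. The genes were ordered by role: 8 of hybrids, G-quadruplexes and transcription, 9 of the spliceosome, 7 of mRNA export, translation and decay, 15 of ribosome biogenesis, 2 of mitochondrial RNA, 3 of viral RNA sensing, 4 expressed mainly in germ cells and 5 with no role assigned.

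RNA libraries held 18121181 to 20006954 counts. The targeted gene RNF8 had 561, 537 and 553 counts in shScr and 175, 195 and 142 in shRNF8 (3.15-fold lower, edgeR adjusted p = 0.000165). shScr replicate 1 stood apart: its chi-square per degree of freedom against shScr replicates 2 and 3 was 32.4 and 31.2, against 3.55 between those, and on the first principal component it lay at -12.5, among the shRNF8 libraries (-21.0 to -9.55) and away from 27.3 and 27.0. Results that rest on it are given with and without it. The 6 genes listed as markers of the cell line were all expressed: vimentin, CD44, AXL, FN1 and the epithelial keratins KRT8 and KRT18. Vimentin was at a mean of 963 CPM in shScr and 1073 CPM in shRNF8, where CPM are counts scaled to a common library size. KRT8 was at 649 and 688 CPM, so the list does not point to mesenchymal genes alone. Of 8 markers of other cell types COL1A1 had the highest mean (3.56 and 1.78 CPM) while CD3E was at 0. The S9.6 lists held 49277 and 38659 peaks in shScr, and 32358, 34103, 50963 and 48546 in shRNF8. Peaks of shRNF8 replicates 3 and 4 covered 83.5 and 79.0 Mb, against 34.4 to 47.6 Mb in the other 4 libraries, so these 2 stood apart, and the peak names inside their lists carry the stems of replicates 1 and 2. The number of reads behind the peak lists is unknown.

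Per kilobase of exon, 6 of the 53 genes were above 90 CPM per kb on the mean of the 6 libraries. DDX5, a cofactor of transcription and splicing, stood at 118 ± 14.7 CPM per kb in shScr and 140 ± 11 in shRNF8 (SD, n = 3 each). DHX15, which takes the spliceosome apart after splicing, stood at 109 ± 10.4 and 117 ± 10.8 CPM per kb, and DDX1, an R-loop and tRNA ligation helicase, at 100.1 ± 19.1 and 123 ± 10.9. DDX39A, an mRNA export factor, stood at 106 ± 21.4 and 110 ± 1.27 CPM per kb. DDX21, a nucleolar helicase of ribosomal RNA transcription and processing, stood at 115 ± 18.1 and 82.9 ± 7.28 CPM per kb, and DHX9, which unwinds RNA and DNA-RNA duplexes, at 86.2 ± 11.1 and 98.7 ± 5.98. The library ranges of neighbours in this order overlapped, so the order among these 6 is not set beyond their spread. The lowest of the 49 genes that passed the filter on low counts were DDX26B, DHX34, a factor of nonsense-mediated decay, and DHX58 (LGP2), with means over the 6 libraries of 0.444, 2.63 and 2.83 CPM per kb.

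The 4 genes under the filter were DDX53, DDX4, DDX25 and DDX39B. DDX53, DDX4 (VASA) and DDX25 are expressed mainly in germ cells, and each had 0 to 2 counts in every library. DDX43, another gene of the germ cell list, was measured, at 29.8 to 39.0 CPM. DDX39B (UAP56), a core factor of mRNA export and splicing, had 2, 4 and 1 counts in shScr and 5, 6 and 4 in shRNF8. Of its exon bases 84.9% are also listed for ATP6V1G2-DDX39B, a read-through gene, or MCCD1, and it is listed on 7 contigs besides chromosome 6, as is DHX16. The counting command in the file header sets no option for reads that overlap several genes or map to several places. The part of this in the low count was not tested, so the value is not read as low expression.

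**Figure D1:**
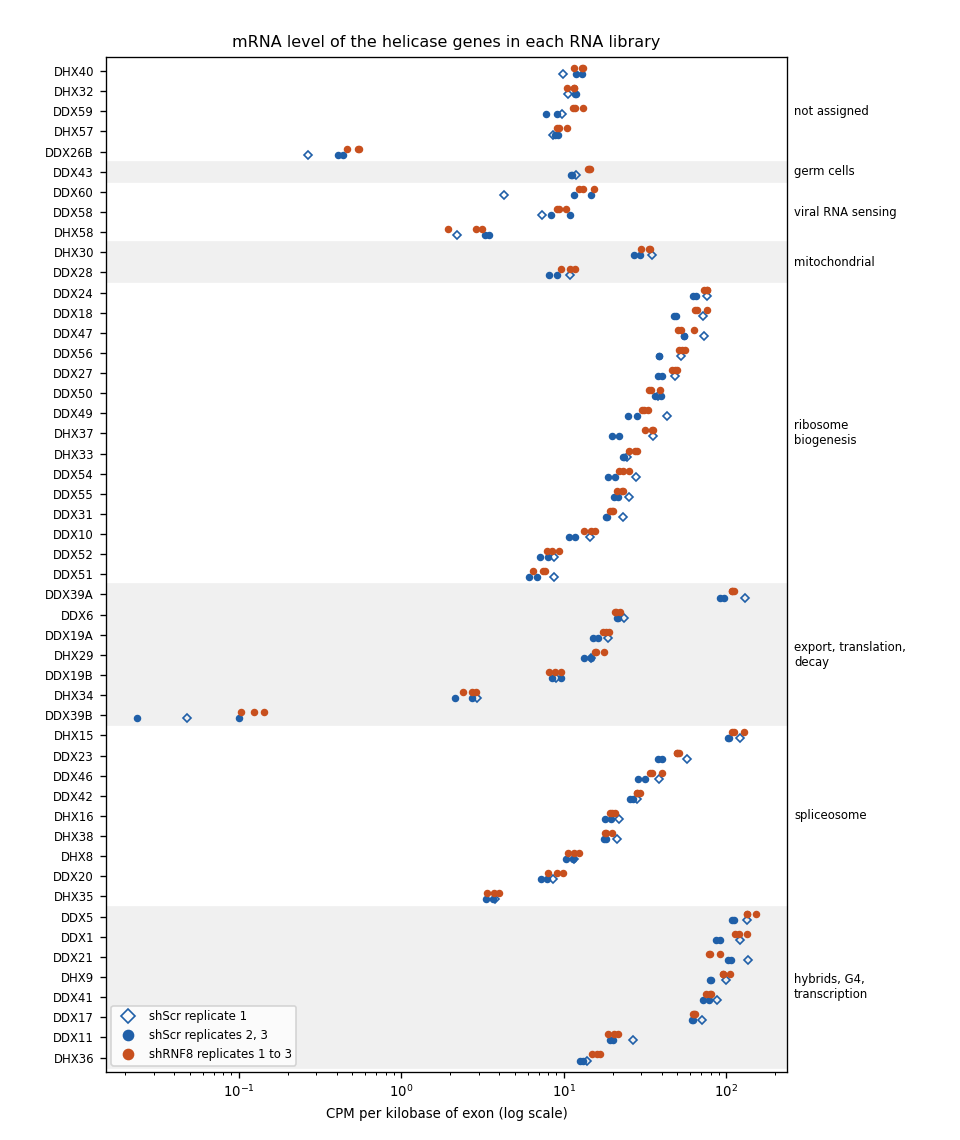
mRNA level of each helicase gene in each RNA library, in CPM per kilobase of exon on a log scale, with genes ordered by role and then by mean level; every point is 1 library, and DDX4, DDX25 and DDX53 (at or near 0) are left out. DDX5 and DHX15 lie at the top of their groups, DDX39B and DDX26B lie far below the others, and the open diamond of shScr replicate 1 often lies to the right of the other shScr libraries.

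The first comparison asked whether RNF8 knockdown was accompanied by a change in helicase mRNA. No helicase gene passed the test: 0 of 49 were higher and 0 lower at an edgeR adjusted p under 0.05, where 2.54% of all 14018 genes tested passed (0.970% higher, 1.57% lower). At an unadjusted edgeR p under 0.05 there were 7, or 14.3% of 49, against 20.1% of all genes. Fitted log2 fold changes ran from -0.47 to 0.48 with a median of 0.11, against -0.0048 over all genes, and 34 of 49 were above 0. The groups of 3 did not overlap for 7 genes, 6 of them higher in shRNF8 (12.2%, against 12.5% of all genes) and 1 lower (2.04%, against 12.8%). On simulated counts at this sample size the fit recovered 38 of 67 genes changed 1.5-fold and 61 of 67 changed 2-fold, so changes of the size fitted here would often be missed.

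Among the 8 genes of hybrids, G-quadruplexes and transcription, 0 passed, 4 had fitted values above 0 and 4 below, and the median log2 fold change was 0.09. DDX21 had the smallest p of all 49. It measured 682, 534 and 517 CPM in shScr replicates 1, 2 and 3 and 400.4, 391 and 458 CPM in shRNF8. All 3 shRNF8 libraries lay under all 3 shScr libraries, and shScr replicate 1 was the highest of the 6. The log2 fold change was -0.47 (SE 0.12, 1.39-fold lower), and it missed the threshold (edgeR adjusted p = 0.0631). DDX21 passed with the DESeq2 Wald test (adjusted p = 0.00727), with edgeR without a filter on low counts (adjusted p = 0.0150), with library size as the only scaling (edgeR adjusted p = 0.0485) and without shScr replicate 1 (edgeR adjusted p = 0.00630, log2 fold change -0.33), but leaving out the other libraries singly raised its edgeR adjusted p to as much as 0.246.

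DHX36 measured 49.97, 45.4 and 47.3 CPM in shScr and 58.1, 53.6 and 60.5 CPM in shRNF8, without overlap (log2 fold change 0.27, SE 0.094, edgeR adjusted p = 0.144). DDX5 measured 507, 417 and 407 CPM in shScr and 505, 501 and 575 CPM in shRNF8. Its shScr replicate 1 lay inside the shRNF8 range while replicates 2 and 3 lay under it (log2 fold change 0.25, SE 0.11, edgeR adjusted p = 0.225). The same shape was seen for DDX1 (335, 251 and 238 against 329, 311 and 369 CPM, edgeR adjusted p = 0.234) and DHX9 (463, 375 and 371 against 447, 443 and 493 CPM, edgeR adjusted p = 0.323). DDX17, the close paralogue of DDX5, measured 341, 295 and 298 CPM in shScr and 306, 299 and 308 CPM in shRNF8, a log2 difference of -0.03 (SE 0.089). DDX41, which also senses DNA in the cytosol, and DDX11, a DNA helicase of sister chromatid cohesion, had log2 fold changes of -0.02 and -0.13 (edgeR adjusted p = 0.936 and 0.601).

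Of the 15 ribosome biogenesis genes, which process pre-ribosomal RNA in the nucleolus, 0 passed, with a median log2 fold change of 0.11 and 9 above 0. DDX56 measured 151, 110 and 111 CPM in shScr and 146, 154 and 160 CPM in shRNF8 (edgeR adjusted p = 0.200). DHX37, a helicase of the small subunit processome, measured 161, 89.8 and 99.8 CPM in shScr and 160, 159 and 145 CPM in shRNF8 (edgeR adjusted p = 0.268). In both, shScr replicate 1 had the level of the shRNF8 libraries and the other shScr libraries lay under all 3 of them. DHX33, also of ribosomal RNA transcription, measured 138, 132 and 130 CPM in shScr and 158, 154 and 141 CPM in shRNF8 without overlap (log2 fold change 0.18, SE 0.085, edgeR adjusted p = 0.276). DDX47 had the lowest fitted value of the group (log2 fold change -0.14, edgeR adjusted p = 0.585).

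The 9 spliceosome genes (median log2 fold change 0.09) ran from -0.03 (DHX38) to 0.19 (DDX20), and 0 had an unadjusted p under 0.05. Of 6 tested genes of export, translation and decay, DHX29, which helps ribosomes scan structured leaders, measured 66.1, 66.2 and 59.1 CPM in shScr and 69.4, 70.7 and 78.6 CPM in shRNF8 without overlap (edgeR adjusted p = 0.286). DDX6, a repressor of translation in P-bodies, had a log2 fold change of -0.05. The mitochondrial helicases DDX28 and DHX30 had log2 fold changes of 0.20 and 0.09. DDX43 measured 32.1, 29.8 and 30.1 CPM in shScr and 39.0, 37.9 and 38.7 CPM in shRNF8 (log2 fold change 0.33, SE 0.094, edgeR adjusted p = 0.0858). DDX59, with no role assigned here, measured 22.6, 21.1 and 18.1 CPM in shScr and 27.1, 26.5 and 30.4 CPM in shRNF8. Its groups did not overlap, and the log2 fold change of 0.44 (SE 0.12) missed the threshold (edgeR adjusted p = 0.0778). DDX59 passed with DESeq2 (adjusted p = 0.0323), with edgeR without the filter (adjusted p = 0.0494) and without shScr replicate 1 (edgeR adjusted p = 0.00315), and leaving out other libraries raised its edgeR adjusted p to as much as 0.309.

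The 3 genes of viral RNA sensing had 0 calls. DDX60, an interferon-induced cofactor of these sensors, measured 26.1, 88.9 and 70.6 CPM in shScr and 75.6, 93.7 and 79.5 CPM in shRNF8. Its shScr replicate 1 was under all 5 other libraries (log2 fold change 0.42, SE 0.43). The sensor DDX58 (RIG-I) measured 34.8, 52.1 and 39.5 CPM against 43.5, 49.05 and 44.3, and its regulator DHX58 5.77, 9.10 and 8.61 CPM against 7.52, 8.25 and 5.09, and both groups overlapped.

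shScr replicate 1 had a pattern of its own over the helicase genes. It lay above both other shScr libraries for 39 of 49 genes (79.6%), against 42.0% of all genes tested, with a median difference of 0.25 on the log2 scale, against -0.00034 over all genes. By role this held for 14 of 15 ribosome biogenesis genes (median 0.37), 9 of 9 spliceosome genes (0.22) and 8 of 8 genes of hybrids and transcription (0.31). It lay below both for 3 of 3 genes of viral RNA sensing (median -0.58) and for 4 of 5 genes with no role assigned. All 3 shRNF8 libraries lay above shScr replicates 2 and 3 for 28 genes (57.1%, against 27.7% of all genes) and below them for 3 (6.12%, against 27.7%).

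Without shScr replicate 1, 17 of 49 genes were higher in shRNF8 (34.7%) and 1, DDX21, was lower (2.04%). In the same fit 12.8% of all 14259 genes were higher and 14.3% lower. The median log2 fold change of the helicase genes was 0.18, against -0.00061 over all genes, and 42 of 49 lay above 0. By role, 7 of 15 ribosome biogenesis genes rose, among them DHX37 (log2 fold change 0.71, SE 0.086, edgeR adjusted p = 1.73e-05), DDX18 (0.51, edgeR adjusted p = 0.000377) and DDX56 (0.47, edgeR adjusted p = 0.000423). In the group of hybrids and transcription 4 of 8 rose, namely DDX1 (0.46, edgeR adjusted p = 0.000783), DDX5 (0.36, edgeR adjusted p = 0.00372), DHX9 (0.31, edgeR adjusted p = 0.00760) and DHX36 (0.31, edgeR adjusted p = 0.0184). The spliceosome helicases DDX23 (0.36, edgeR adjusted p = 0.00280) and DDX46 (0.27, edgeR adjusted p = 0.0323) rose, as did DDX39A, DDX28, DDX43 and DDX59, and 0 of 3 genes of viral RNA sensing passed. The helicase calls of this fit thus rested mostly on whether this 1 control library was kept. DDX21 and DDX59 also passed with shScr replicate 1 kept, under some other settings. Whether shScr replicate 1 or shScr replicates 2 and 3 give the level of control cells was not tested.

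**Figure D2:**
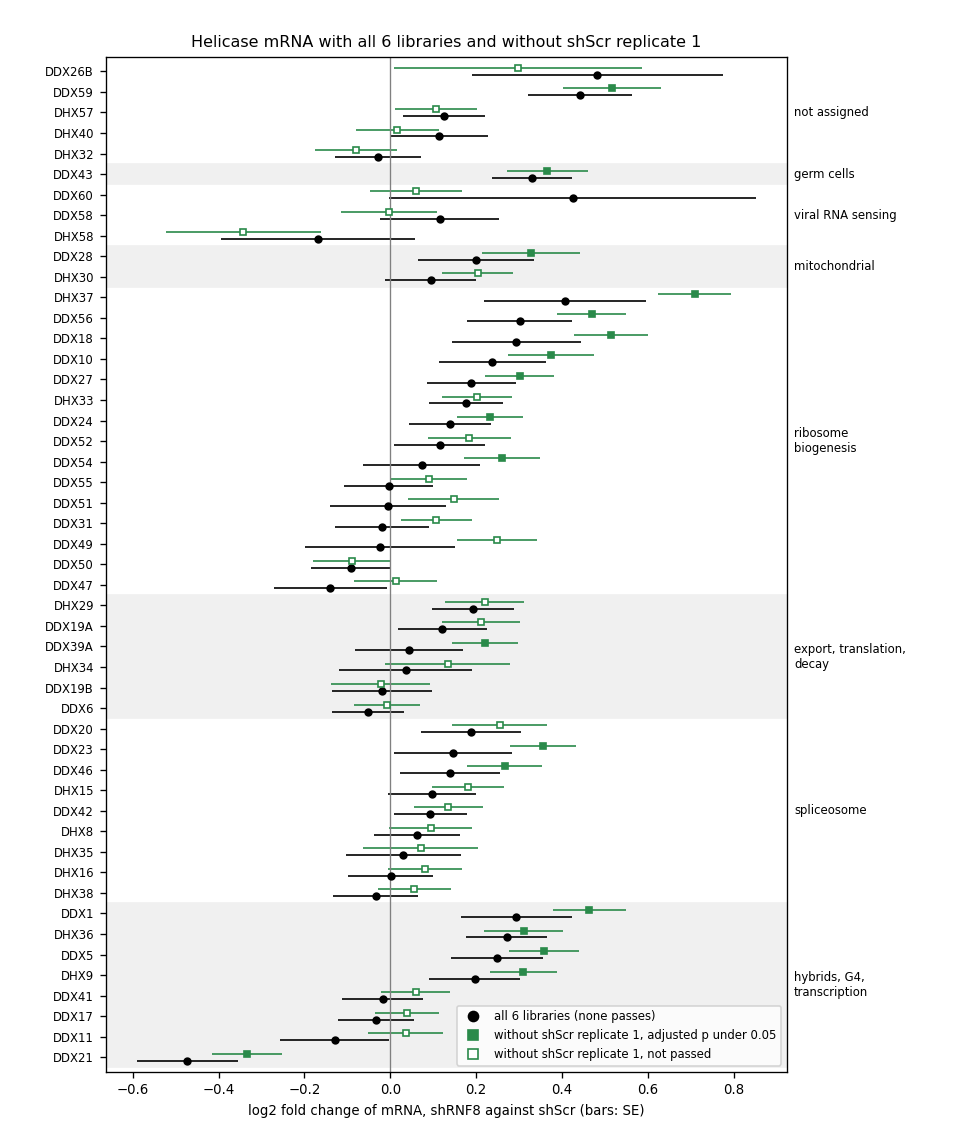
Log2 fold change of mRNA in shRNF8 against shScr for the 49 helicase genes tested, ordered by role, with bars of 1 standard error; black circles use all 6 libraries and green squares leave out shScr replicate 1, filled where the edgeR adjusted p was under 0.05. No black circle passes, whereas 18 green squares are filled, 17 of them to the right of 0 and DDX21 to the left.

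Close relatives did not always move alike in value. DDX21 and DDX50 are neighbouring paralogues on chromosome 10 (chr10:68956123-68985069 and chr10:68901278-68946847, hg38). DDX50 measured 95.8, 100.1 and 91.9 CPM in shScr and 84.7, 86.8 and 98.7 CPM in shRNF8, so its groups overlapped (log2 fold change -0.09, SE 0.093) where those of DDX21 did not. DDX19A and DDX19B, export helicases side by side on chromosome 16, had log2 fold changes of 0.12 (SE 0.10) and -0.02 (SE 0.12). Reads that fit both paralogues could be split between them, and the differences within these pairs were not tested.

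Helicases outside the name rule and the known cofactors gave 0 calls as well. Of 17 tested genes among 19 related helicases, the median log2 fold change was 0.12. DDX3X, a translation helicase, went from a mean of 867 to 1060 CPM (edgeR adjusted p = 0.164), and EIF4A1, the helicase of translation initiation, had 0 counts in all 6 libraries, which is not read as absence because the handling of shared reads is not known. Of 19 proteins with a G-patch, the domain that activates DEAH-box helicases, the median was 0.03. Of 14 MIF4G and other cofactors of DEAD-box helicases the median was -0.0049. The EIF4A inhibitor PDCD4 measured a mean of 26.9 CPM in shScr and 19.9 CPM in shRNF8 (log2 fold change -0.44, edgeR adjusted p = 0.0650), and EIF4G2 710 and 979 CPM (0.46, edgeR adjusted p = 0.0752).

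The second comparison asked where DNA-RNA hybrids lay over the helicase genes and whether their cover differed in shRNF8. S9.6 peaks lay inside 38 and 36 of the 53 genes in shScr and 36, 36, 38 and 41 in shRNF8, or 67.9% to 77.4% per library, against 33.1% to 41.7% of all 26023 genes with 1 locus. By a stricter count over genes measured in RNA, 27 of 49 helicase genes (55.1%) held a peak in every S9.6 library, against 41.6% of 13984 genes. In the RNase-treated libraries DDX51 alone held a peak, of 199 bp with a fold enrichment of 5.18 in shScr replicate 1, and 0 of 53 genes held a peak in the other 5. Over all genes the share was 0.684% in that library and 0.211% to 1.82% over the 6, so counts of 1 and 0 are near the background. Of the 53 genes, 28 held a peak in all 6 S9.6 libraries and 8 in none: DDX10, DHX40, DHX35, DHX29, DDX26B and the germ cell genes DDX25, DDX4 and DDX53. The median mRNA level in shScr was 31.2 CPM per kb for the 28 and 1.99 for the 8, and their median spans were 28.6 and 56.7 kb.

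Some short genes were covered over most of their length. Averaged over the 6 S9.6 libraries, peaks covered 97.5% of DDX41 (5.39 kb from start to end), 94.1% of DDX49, 89.6% of DDX56 and 86.9% of DDX51, the last 3 of ribosome biogenesis. The export genes DDX39B and DDX39A were covered over 72.6% and 67.2% of their length. DDX39B, with 1 to 6 RNA counts a library, thus had peaks over 6195 to 11263 bp in every S9.6 library. Within 1000 bp before to 5000 bp after the gene end, 13 genes held a summit in all 6 libraries, among them DDX23, DDX24, DDX31, DDX41, DDX49 and DDX56. Among genes measured in RNA this was 12 of 49 (24.5%), against 15.2% of all such genes.

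A peak summit within 1000 bp of the gene start was found for 25 and 23 genes in shScr and 24, 23, 20 and 17 in shRNF8 (32.1% to 47.2%, against 20.6% to 26.6% of all genes). These counts depend on the place of the summit. Counting any peak over the 300 bp around the start gave 20 and 18 genes in shScr and 18, 20, 20 and 17 in shRNF8. A summit within 1000 bp was present in all 6 libraries for 8 genes: DDX59, DHX9, DDX21, DDX5, DHX15, DHX16, DDX31 and DDX39B. In 19 genes no library had one. Of the 49 genes measured in RNA, 14.3% had a start peak in all 6 libraries, against 10.1% of all genes measured. The fold enrichment of a peak over its local background is the authors' value. Among these 8 genes DDX31, a nucleolar helicase, had the highest mean, with 6.75 and 8.0 in shScr and 19.7, 11.8, 8.61 and 13.7 in shRNF8. All 4 shRNF8 values lay above both shScr values. The DDX31 summits lay 152 to 740 bp inside the gene, except in shRNF8 replicate 3, at -473 bp. Of the DDX31 exon bases 61 are also listed for GTF3C4, and which gene these peaks belong to was not tested. DHX15 had 6.25 and 4.61 in shScr and 15.1, 13.6, 8.75 and 7.1 in shRNF8, again without overlap. Its summits lay 63 to 510 bp inside the gene, except in shRNF8 replicate 4, at -246 bp. The folds of DDX31 and DHX15 may therefore not be of the same peak in every library. DDX5 had 16.4 and 7.25 in shScr and 8.55, 10.7, 8.21 and 6.10 in shRNF8, which overlapped. DHX9 had 8.4 and 6.76 against 7.11, 8.95, 5.35 and 5.91. DDX21 had 7.24 and 8.95 against 5.87, 7.0, 4.45 and 2.74, with all 4 shRNF8 values under both shScr values. DDX59 had 8.19 and 9.5 against 4.74, 3.91, 4.46 and 4.42, also with all 4 shRNF8 values under both shScr values. The DDX59 summits lay 487 and 426 bp inside the gene in shScr and 249 bp inside it in shRNF8 replicates 1 and 2. In shRNF8 replicates 3 and 4 they lay before the start, at -658 and -722 bp, so the DDX59 folds are not of the same peak. Of genes with a start peak in fewer libraries, DDX17 had 21.6 in shScr replicate 1 and 12.2, 9.64 and 10.5 in shRNF8 replicates 1 to 3, and DDX51 had 12.1 and 8.96 in shScr and 13.8 and 11.7 in shRNF8 replicates 1 and 2. Each library was called on its own and its depth is unknown, so these folds are set side by side without a test. The share of all genes whose start-peak folds do not overlap was not counted, so these cases have no background to be read against. The start peaks of DDX21 had their summits 353 to 482 bp inside the gene in all 6 libraries. Those of DDX5 lay at -946 to -604 bp, before the start, in 5 libraries and 488 bp inside the gene in shScr replicate 2. Another gene starts within 1000 bp of DDX5 on the opposite strand, so which gene's start the upstream peaks belong to cannot be told apart.

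**Figure D3:**
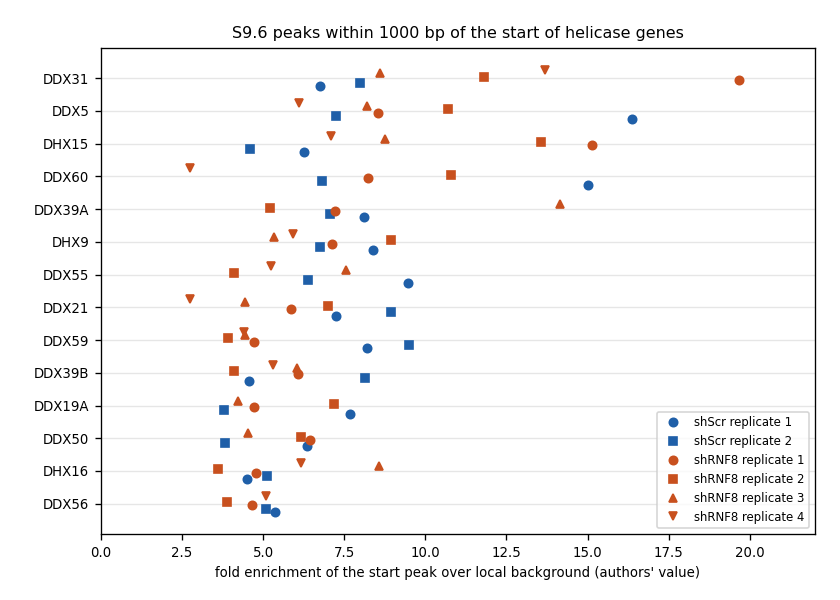
Fold enrichment of the S9.6 peak whose summit lies within 1000 bp of the gene start, for the 14 helicase genes with such a peak in 5 or 6 of the 6 S9.6 libraries, ordered by mean; every point is 1 library, blue for shScr and orange for shRNF8. Among the 8 genes with a point in every library, all 4 orange points lie to the right of both blue points in DDX31 and DHX15 and to the left in DDX21 and DDX59. The share of such cases over all genes was not counted. In DDX31, DHX15 and DDX59 the summits lay on both sides of the start, depending on the library.

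The bases just upstream of the start are shown for 4 genes with a start peak in all 6 libraries, for DDX58, with a start peak in shScr only, and for DHX29, with no peak in any library. They are RefSeq sequence of GRCh38.p14, 5′ to 3′ on the strand of the gene, and end before the start given by RefSeq and by the count table. Capitals mark runs of 4 or more G, letters often discussed for R-loops and G-quadruplexes. The printed bases lie before the annotated start, outside the annotated gene. The summits of the start peaks can lie outside them, as in DDX21, so the runs describe the upstream sequence and not the peaks.
DDX5, chr17:64506367-64506539, minus strand: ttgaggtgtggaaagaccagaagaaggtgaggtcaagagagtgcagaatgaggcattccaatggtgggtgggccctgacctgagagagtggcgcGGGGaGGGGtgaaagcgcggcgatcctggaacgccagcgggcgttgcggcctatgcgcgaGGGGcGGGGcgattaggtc
DHX15, chr4:24584562-24584804, minus strand: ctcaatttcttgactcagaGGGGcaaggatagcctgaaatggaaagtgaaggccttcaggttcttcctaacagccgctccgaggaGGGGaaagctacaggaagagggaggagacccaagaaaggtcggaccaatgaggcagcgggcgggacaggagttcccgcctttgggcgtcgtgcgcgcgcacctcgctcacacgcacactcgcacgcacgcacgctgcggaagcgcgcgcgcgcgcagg
DHX9, chr1:182839097-182839303, plus strand: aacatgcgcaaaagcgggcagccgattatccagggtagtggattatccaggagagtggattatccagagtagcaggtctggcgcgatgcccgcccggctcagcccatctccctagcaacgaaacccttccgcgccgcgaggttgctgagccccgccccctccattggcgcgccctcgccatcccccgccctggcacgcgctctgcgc
DDX21, chr10:68955920-68956122, plus strand: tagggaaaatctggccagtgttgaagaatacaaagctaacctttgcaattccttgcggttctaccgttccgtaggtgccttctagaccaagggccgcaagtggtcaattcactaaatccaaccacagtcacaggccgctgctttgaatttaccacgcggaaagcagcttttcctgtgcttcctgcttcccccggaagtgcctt
DDX58 (RIGI in RefSeq), chr9:32526325-32526446, minus strand: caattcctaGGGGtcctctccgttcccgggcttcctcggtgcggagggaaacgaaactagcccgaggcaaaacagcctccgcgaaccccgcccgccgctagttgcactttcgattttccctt
DHX29, chr5:55307695-55307944, minus strand: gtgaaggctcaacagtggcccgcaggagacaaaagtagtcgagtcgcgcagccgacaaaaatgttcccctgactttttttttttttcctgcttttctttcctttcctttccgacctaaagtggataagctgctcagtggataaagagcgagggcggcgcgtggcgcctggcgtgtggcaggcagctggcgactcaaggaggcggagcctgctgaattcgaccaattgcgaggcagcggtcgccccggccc

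The upstream bases of DDX5 held 4 such runs, those of DHX15 2 and of DDX58 1, while DHX9, DDX21 and DHX29 had none on this strand, so these runs were present in some and absent in other genes with a start peak in every library. The 300 bp windows of RefSeq (250 before to 50 after the start) were matched for 48 of the 53 genes, all but DHX33, DDX52, DHX58, DDX49 and DDX18, and in 34 the start lay within 100 bp of that of the count table. GGGG on the strand of the gene was in 75.0% of the 48 windows, against 75.1% of all 35116 windows in the table and 84.9% of 15278 windows of genes measured in RNA. Among the 34, it was in 8 of 11 windows of genes with a start peak in 5 or 6 libraries and 12 of 14 of genes with none, and the median GC content was 59.7% and 60.8%. CCGGAAG on either strand, letters found in the binding motif of ETS factors, was in 19 of 48 windows (39.6%), against 10.3% of all windows and 15.9% of those of genes measured. The 19 included DDX21, DDX1, DHX36, DHX37, DDX56 and DDX31. CCAAT on either strand was in 24 of 48 (50%), against 34.6% and 34.0%, and CACGTG in 8 (16.7%), against 7.26% and 9.16%. Each string was counted on its own, whether or not matches of different strings shared bases, and a match describes the window only. Another gene started within 1000 bp on the opposite strand for 11 of 49 measured helicase genes (22.4%), against 15.3% of all measured genes.

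Start peaks went with mRNA level in value. The median level in shScr was 30.1 CPM per kb for the 14 genes with a start peak in 5 or 6 libraries, 22.2 for the 20 with 1 to 4 and 11.4 for the 19 with none. The ranges overlapped widely: genes without any start peak reached 61.0 CPM per kb. DDX39B, whose count is not read as a level, is in the group of 14.

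Cover by peaks, the number of bases of the gene under S9.6 peaks, did not overlap between the groups for 10 of the 45 helicase genes with a peak. It was higher in shRNF8 for 6 (13.3%, against 7.60% of 13414 genes) and lower for 4 (8.89%, against 6.70%). With 2 libraries against 4 there are 15 splits, and a two-sided exact permutation test cannot go below p = 0.0667, so no gene can pass. With the same number of peaks taken from every library (the 32358 with the lowest p), 9 of 44 were higher (20.5%, against 10.4%) and 4 lower (9.09%, against 6.20%). Without shRNF8 replicates 3 and 4, a choice made after the peak lists were seen, 7 were higher (15.9%, against 10.3%) and 14 lower (31.8%, against 32.6%). The count of genes with lower cover in shRNF8 thus depended on these 2 libraries, and its share then lay near that of all genes.

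DDX5 (chr17:64498256-64506366, hg38) was among the 4 with lower cover. Peaks covered 4109 and 3813 bp of it in shScr and 1170, 1683, 2773 and 2814 bp in shRNF8 (exact permutation p = 0.133). Every shRNF8 value lay under both shScr values, also in replicates 3 and 4, whose peaks covered more of the genome. DDX24, a ribosome biogenesis helicase, had 4953 and 4100 bp in shScr and 2079, 1910, 1379 and 955 bp in shRNF8. DDX58 had 3742 and 4560 bp in shScr and 0, 0, 663 and 718 bp in shRNF8, and its start peaks, with folds of 5.13 and 8.08, were called in the shScr libraries only. DDX43 had 448 and 374 bp in shScr and none in shRNF8. For DDX24, DDX58 and DDX43 the exact permutation p was 0.0667, the smallest the splits allow. DDX5, DDX24 and DDX58 kept this order with equal numbers of peaks (for DDX5, 3862 and 3813 against 1170, 1683, 1290 and 1421 bp), while DDX43 did not.

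Of the 6 with higher cover, DHX37 (chr12:124946824-124989121) had 3836 and 1337 bp in shScr and 10625, 4328, 13409 and 10613 bp in shRNF8. DDX54, which acts on the large ribosomal subunit, had 8779 and 6918 bp against 15489, 8864, 15961 and 15986, and in shRNF8 replicate 2 it lay only just above shScr. DDX51 had 5508 and 5254 bp against 6961, 7135, 7741 and 7741, the last being its whole length. For these 3 genes the exact permutation p was 0.0667. DDX39A had 4976 and 4968 bp in shScr against 5896, 5980, 10256 and 10586 bp in shRNF8, and DHX58 had none in shScr against 692, 426, 5639 and 4600 bp (exact permutation p = 0.133 for both). In DDX39A and DHX58 most of the difference lay in shRNF8 replicates 3 and 4. DHX33 had 0 and 300 bp against 606 to 1293 bp, and of the 6 it was the only gene whose groups overlapped with equal numbers of peaks. DHX33, DHX37, DDX54 and DDX51 are all of the ribosome biogenesis list, as is DDX24, whose cover was lower. That list is the largest, with 15 of the 53 genes, and cover was not tested by role.

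**Figure D4:**
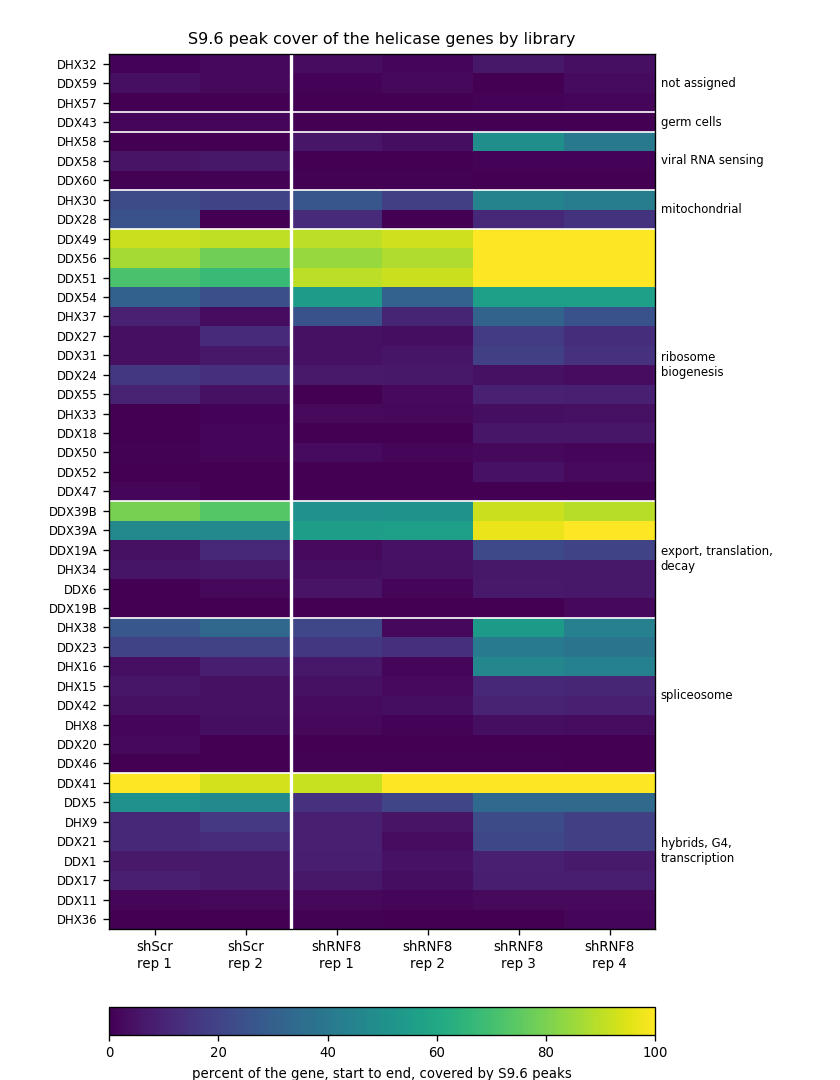
Percent of each helicase gene, from annotated start to end, covered by S9.6 peaks in each of the 6 S9.6 libraries, for the 45 genes with a peak in at least 1 library, ordered by role; the white line separates shScr from shRNF8. DDX41 and DDX49 are covered almost whole in every library, DDX51 is covered less in shScr, DDX5 is brighter in both shScr columns, and many genes are brightest in shRNF8 replicates 3 and 4.

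Side by side, mRNA and cover did not follow 1 pattern over the genes of hybrids and transcription. DDX5 had a fitted mRNA value above 0 and lower cover in shRNF8. DDX21 mRNA was lowest in shRNF8, while its cover was 3373 and 3710 bp in shScr and 2509, 913, 6241 and 5495 bp in shRNF8, with shRNF8 replicates 1 and 2 under and replicates 3 and 4 over both shScr libraries. DHX9 had 5591 and 8064 bp against 4255, 2630, 11062 and 9295 bp, split the same way. DDX17 had 2011 and 1623 bp against 1448, 852, 1892 and 1892 bp, and DDX1 2721 and 2896 bp against 3342, 1985, 3500 and 2897 bp. DHX36 had peaks in 2 shRNF8 libraries only (258 and 612 bp), and DDX11 between 382 and 801 bp in every library. Of these 8 genes, DDX5 alone had cover that did not overlap between the groups. Over 13414 genes 7.60% were higher and 6.70% lower in this way, so a count of 1 of 8 is near the background.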

How the data were processed

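Raw fragment counts per gene were deposited by the authors, made with featureCounts 2.0.1 on hg38 without a strand option, per the file headers. The peak lists were deposited by the authors for each DRIP-seq library, with a fold enrichment (a linear ratio) and the -log10 of p and q of each peak. The lowest -log10 q in the S9.6 lists was 2.00 to 2.03. MACS2 2.2.7.1, Bowtie2 2.2.6, Picard 2.10.9, STAR 2.7.9a and Trim Galore 0.6.6 are named without roles, per the submitters' processing notes. Inputs were not analysed here. The helicase genes, role lists and tests were chosen with earlier results of these data known.

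The count test was edgeR 4.0.16 in R 4.3.3 (filterByExpr, TMM, glmQLFit with robust estimation, glmQLFTest) over 14018 genes, with Benjamini-Hochberg adjustment over all of them and a threshold of 0.05. DESeq2 1.42.0, limma 3.58.1 (voom), other scalings, other filters, a replicate block and leaving out libraries were alternatives. The biological coefficient of variation was 12.4%. The fit was tested on simulated data for 13887 genes. CPM per kilobase divides CPM by the merged exon length on the main chromosome.

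Peaks were intersected with genes in Python 3.11.15 (pandas 2.3.3, NumPy 2.4.6, SciPy 1.17.1), with at least 1 bp of overlap, for 26023 genes listed at 1 locus, and the helicase genes were placed on their main chromosome. Named genes were RNF8 and XRN2, the 10 helicase genes with the smallest RNA p, the 5 with the highest start-peak fold, the 5 highest and 3 lowest per length, the genes of hybrids and transcription, the paralogue pairs, and up to 5 a direction whose S9.6 cover did not overlap. Other genes were named after their values were seen.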

Additional observations from a re-analysis of the deposited data

Results flagged for a closer look

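Among the 4 shRNF8 S9.6 libraries, 1 library was flagged as apart from the other 3 for 2 of the 28 helicase genes examined (Dixon's test at 95%). Chance flags about 1 in 20 groups. Peaks covered 8864 bp of DDX54 in shRNF8 replicate 2, against 15489, 15961 and 15986 bp in replicates 1, 3 and 4. Peaks covered 4935 bp of DDX41 in shRNF8 replicate 1, against the whole 5390 bp in the other 3. Cover cannot exceed the whole gene, so any shortfall of DDX41 in 1 library would have been flagged, and the rate of 1 in 20 does not apply to it.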

How the results depend on the processing

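The count of helicase genes higher in shRNF8 was 0 with all 6 RNA libraries, 1 without a filter on low counts and 1 with DESeq2, and with each library left out it ran from 0 to 17 (17 without shScr replicate 1). The count lower was 0, and 1 with library size only, without a filter, with DESeq2 and with the replicate block, and 0 to 1 with a library left out. Same-numbered RNA libraries did not deviate together (correlations of their deviations -0.08, 0.13 and -0.28, with 1 of 3 shScr libraries closest to its own number), so the numbers were not taken as pairs, and the replicate block changed the call of DDX21 (log2 fold change -0.46, edgeR adjusted p = 0.0342) and no other helicase call. Over all genes, 136 higher and 220 lower became 267 and 381 without a filter, 324 and 535 with DESeq2, 205 and 296 with the replicate block, and 17 to 1823 and 29 to 2042 with a library left out. The median helicase log2 fold change stayed above 0 under all of these, from 0.06 to 0.18, where the helicase median level had an SD of 0.128 between replicates of a group. Uncalled log2 fold changes near 0 changed sign for DDX55 and DDX51: 0.0013 and 0.0015 with library size only, 0.0031 and 0.00035 without a filter, 0.00038 and 0.0049 with limma-voom, and 0.00072 and 0.0035 with the replicate block. DDX49 did so with limma-voom (0.016) and with the block (0.015). With each RNA library left out, the range crossed 0 for 18 uncalled genes: DDX11 -0.22 to 0.036, DDX17 -0.071 to 0.039, DDX19B -0.079 to 0.042, DDX31 -0.079 to 0.11, DDX39A -0.055 to 0.22, DDX41 -0.085 to 0.059, DDX47 -0.25 to 0.013, DDX49 -0.18 to 0.25, DDX51 -0.11 to 0.15, DDX54 -0.040 to 0.26, DDX55 -0.066 to 0.090, DDX58 -0.0026 to 0.29, DHX16 -0.065 to 0.081, DHX32 -0.080 to 0.013, DHX34 -0.085 to 0.13, DHX35 -0.022 to 0.10, DHX38 -0.087 to 0.056 and DHX58 -0.34 to 0.015. In 18 genes a call appeared without shScr replicate 1. Genes with higher S9.6 cover numbered 6, with a range of 6 to 12 when a library was left out (12 without shRNF8 replicate 2, 10 without shScr replicate 2). Genes with lower cover numbered 4, with a range of 4 to 10 (10 without shScr replicate 2), and 14 without shRNF8 replicates 3 and 4. Start peaks in every library fell from 8 genes to 5 at a -log10 q of at least 4, and ran from 8 to 11 with a library left out. Causes of these differences were not tested. The depth of the peak lists is unknown, which limits every comparison of cover.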

Other observations

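XRN2, the exonuclease named in the title of the series, measured 169, 138 and 126 CPM in shScr and 154, 159 and 169 CPM in shRNF8 (edgeR adjusted p = 0.468), so that shScr replicate 1 and shRNF8 replicate 3 were both at 169.

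The S9.6 peak at the start of DDX60 covered the same 567 bp of the gene in both shScr libraries and in shRNF8 replicates 1 and 2, with folds of 15, 6.80, 8.23 and 10.8, while it covered 256 bp in shRNF8 replicate 4 and none in replicate 3. Peaks of 4 libraries thus ended at the same base, and what sets that edge was not tested. In shRNF8 replicates 3 and 4, DDX49 and DDX51 were covered over their whole 8.96 and 7.74 kb but had no summit near the start, where the other 4 libraries had a start peak.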
